A study of Mus musculus with 13 samples.

Results

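The Ras family of small GTPases was followed through 7 genes, Rras2, Mras, Rras, Nras, Rap1a, Rap1b and Rap2a. They were measured in stem and progenitor cells of mice that carry the leukaemia fusion PML-RARA. Probe sets, each of which queries a stretch of exon, were taken where the array's annotation lists them with 1 of these genes and no other. This gave 66 of the 208397 probe sets with a single gene, and the 7 genes were among 15121 with at least 3 probe sets. All 7 passed the filter on low values, with 10584 genes in all. The set was selected on the gene values of the SLAM arrays, in which Rras2 and Mras were higher in mCG-PR than in WT cells, so every value from those arrays is given for the members as a description, with no test.

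RNA from sorted bone marrow cells of 13 mice, 1 mouse per array, was amplified and read on Affymetrix Mouse Exon 1.0 ST arrays. All mice were of the strain Bl/6 Taconic. The mCG-PR mice (genotype label mCG-PR N17) express PML-RARA from the murine Ctsg locus, which encodes the neutrophil protease cathepsin G, and the WT mice were littermates without it. SLAM cells, a compartment enriched for long-term stem cells, came from mCG-PR mice of 7 weeks (n = 2) and WT mice of 6 weeks (n = 2). KLS cells are the wider Kit-positive, lineage-negative, Sca1-positive compartment, which also holds multipotent progenitors. They came from mCG-PR mice of 13 weeks (n = 2) and 6 weeks (n = 3) and from WT mice of 12 to 13 weeks (n = 4), so the younger mCG-PR KLS mice have no WT mice of their own age. Ctsg is best known as a gene of promyelocytes, a later myeloid stage than the sorted cells, and the level of the fusion itself was not measured here. How the SLAM and KLS gates were set is not given in the sources used.

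Ras proteins are molecular switches that are active when bound to GTP. Exchange factors load them with GTP, GTPase-activating proteins switch them off, and a lipid anchor holds them at membranes, where they pass growth factor signals to the RAF and MAP kinase cascade and to PI3 kinase. Nras is a classical member and is often mutated in human myeloid leukaemia. Rras, Rras2 (also called TC21) and Mras form the R-Ras branch, whose members share much of their effector region with the classical proteins. Rap1a and Rap1b are best known for the control of integrin adhesion, and Rap2a is their relative.

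The labelled populations were first set against marker genes, on the log2 scale of the deposited intensities. Cd48, which SLAM gates select against, was 4.24 to 4.26 in mCG-PR SLAM and 4.70 to 5.56 in WT SLAM, against 8.28 to 9.61 over the KLS arrays. Slamf1, which they select for, was 6.21 to 6.63 in mCG-PR SLAM and 7.47 to 7.68 in WT SLAM, and the 9 KLS arrays lay between 5.17 and 6.31, so mCG-PR SLAM overlapped with KLS in this marker. Kit and Ly6a, which define KLS cells, were at 8.51 or above on every array. The WT SLAM replicate 2 array stood apart in markers of some other cells. The log2 of the summed level of 9 of 9 neutrophil markers was 11.49 to 12.95 in mCG-PR SLAM, and in WT SLAM it was 13.18 in replicate 1 and 14.65 in replicate 2. For 6 of 6 mast cell and basophil markers it was 8.94 on both mCG-PR SLAM arrays, and in WT SLAM it was 8.72 in replicate 1 and 10.31 in replicate 2. Macrophage markers were at 9.44 to 9.71 in mCG-PR SLAM, and in WT SLAM at 10.23 in replicate 1 and 10.08 in replicate 2. Megakaryocyte and platelet markers were at 9.67 to 9.70 in mCG-PR SLAM and 10.02 to 10.08 in WT SLAM. Erythroid markers overlapped, at 10.67 to 11.03 in mCG-PR SLAM and 10.81 to 10.97 in WT SLAM. The mean of 2 measured Y-linked genes was 4.23 to 4.28 in mCG-PR SLAM and 7.93 to 8.21 in WT SLAM. Genotype, this Y-linked difference and an age difference of 1 week cannot be told apart between the SLAM groups. In sorted bulk RNA, fewer cells of a type and less RNA per cell cannot be told apart either.

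The promoters of the 4 members whose SLAM values differed most between genotypes are shown because the members with higher values in mCG-PR SLAM can be set beside those with lower values. Each is the 250 bases before the first RefSeq start of the gene, from the GRCm38.p6 build, 5′ to 3′ on the strand of the gene. The deposited values were made on the mm9 build, and the 2 sets of positions were not joined. Capitals mark matches, on either strand, to any of 5 motifs: AGGTCA, the core element of nuclear receptors such as the retinoic acid receptors, GGGCGG, the GC box, CCGGAA, bound by ETS factors, AGATAA, bound by GATA factors, and CACGTG, the E box.
Rras2 promoter, chr7:114117782-114118031, minus strand: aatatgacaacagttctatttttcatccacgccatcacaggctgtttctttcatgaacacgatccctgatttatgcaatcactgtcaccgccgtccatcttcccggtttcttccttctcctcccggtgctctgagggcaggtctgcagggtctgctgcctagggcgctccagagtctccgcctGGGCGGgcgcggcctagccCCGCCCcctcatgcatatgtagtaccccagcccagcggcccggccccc
Mras promoter, chr9:99436713-99436962, minus strand: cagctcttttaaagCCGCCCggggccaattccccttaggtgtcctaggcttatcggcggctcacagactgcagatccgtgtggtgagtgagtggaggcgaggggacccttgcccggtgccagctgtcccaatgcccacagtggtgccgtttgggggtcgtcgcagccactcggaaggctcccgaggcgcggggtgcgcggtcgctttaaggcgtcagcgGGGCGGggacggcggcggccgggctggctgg
Rras promoter, chr7:45017692-45017941, plus strand: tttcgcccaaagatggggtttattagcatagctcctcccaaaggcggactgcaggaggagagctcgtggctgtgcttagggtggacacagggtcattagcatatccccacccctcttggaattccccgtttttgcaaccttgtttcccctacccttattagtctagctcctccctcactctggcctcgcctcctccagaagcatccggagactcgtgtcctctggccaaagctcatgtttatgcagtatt
Nras promoter, chr3:103058035-103058284, plus strand: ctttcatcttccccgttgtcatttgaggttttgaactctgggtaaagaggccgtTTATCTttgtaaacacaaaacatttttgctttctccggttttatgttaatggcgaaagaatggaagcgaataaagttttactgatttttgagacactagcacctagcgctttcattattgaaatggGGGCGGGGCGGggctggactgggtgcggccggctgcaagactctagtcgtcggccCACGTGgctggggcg
Rras2 held 2 GC boxes, whose first bases lay 67 and 48 bases before the start, in a sequence with 59.6% G and C. Mras also held 2 GC boxes, 236 and 31 bases before the start, with 68.4% G and C. Nras held 2 GC boxes that overlap by 1 base, a GATA motif 196 bases before the start and an E box 15 bases before it, with 48.4% G and C. Rras held none of the 5 motifs at this start, with 53.2% G and C. A later Rras start carries AGGTCA 56 bases upstream, and AGGTCA was found in none of the printed windows. Over 32851 promoters of the same length, AGGTCA was present in 14.0%, GGGCGG in 32.7%, CCGGAA in 12.0%, AGATAA in 9.99% and CACGTG in 6.02%. A match here is a match of letters, and no binding was measured.

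Rras2 was the member with the widest gap between the SLAM groups. Its gene value, the median log2 intensity of its 8 probe sets, was 8.28 and 8.75 in mCG-PR SLAM and 5.59 and 5.28 in WT SLAM. The means were 8.51 ± 0.33 in mCG-PR SLAM and 5.43 ± 0.22 in WT SLAM (SD, n = 2 each), a difference of 3.08 on the log2 scale or 8.45-fold. With the mean of probe sets the difference was 2.28, and with the median of probe sets above the filter it was 3.17. Both WT SLAM values lay below 6.00, the level at which genes were filtered, so the 8.45-fold rests on a low reference. Both mCG-PR SLAM arrays were higher than every other array of the series, and both WT SLAM arrays were lower than every other. KLS values lay between them, at 6.66 and 6.64 in mCG-PR KLS of 13 weeks, 7.12, 6.92 and 7.10 in mCG-PR KLS of 6 weeks, and 7.18, 7.23, 7.18 and 6.22 in WT KLS. In the order of group means mCG-PR SLAM came first and WT SLAM last, both apart from their neighbour. Between them, mCG-PR KLS of 6 weeks, WT KLS and mCG-PR KLS of 13 weeks overlapped from neighbour to neighbour.

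Mras, which in complex with Shoc2 and protein phosphatase 1 removes an inhibitory phosphate from RAF kinases, was also high in mCG-PR SLAM. Its values were 8.53 and 9.23 in mCG-PR SLAM and 5.57 and 7.50 in WT SLAM. The means were 8.88 ± 0.49 in mCG-PR SLAM and 6.53 ± 1.37 in WT SLAM (SD, n = 2 each), a difference of 2.34 on the log2 scale or 5.07-fold. The 2 WT SLAM arrays lay far apart, and the groups did not overlap. WT SLAM replicate 1, at 5.57, lay below the filter level of 6.00, so the 5.07-fold rests in part on a low reference. Without WT SLAM replicate 2, the array with high neutrophil and mast cell markers, the difference was 3.31, and without WT SLAM replicate 1 it was 1.38. The part of those other cells in the Mras value was not tested. The median of 7 probe sets is the reading of a single probe set, and it was a different one on each SLAM array. With the mean of probe sets the Mras difference between the SLAM groups was 1.64, and with the median of probe sets above the filter it was 1.99. KLS values were 6.87 and 6.53 in mCG-PR of 13 weeks, 6.67, 6.75 and 5.84 in mCG-PR of 6 weeks, and 6.74, 6.84, 7.03 and 6.22 in WT. Only mCG-PR SLAM stood apart in the order of group means, and the other 4 groups overlapped with their neighbours.

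**Figure D1:**
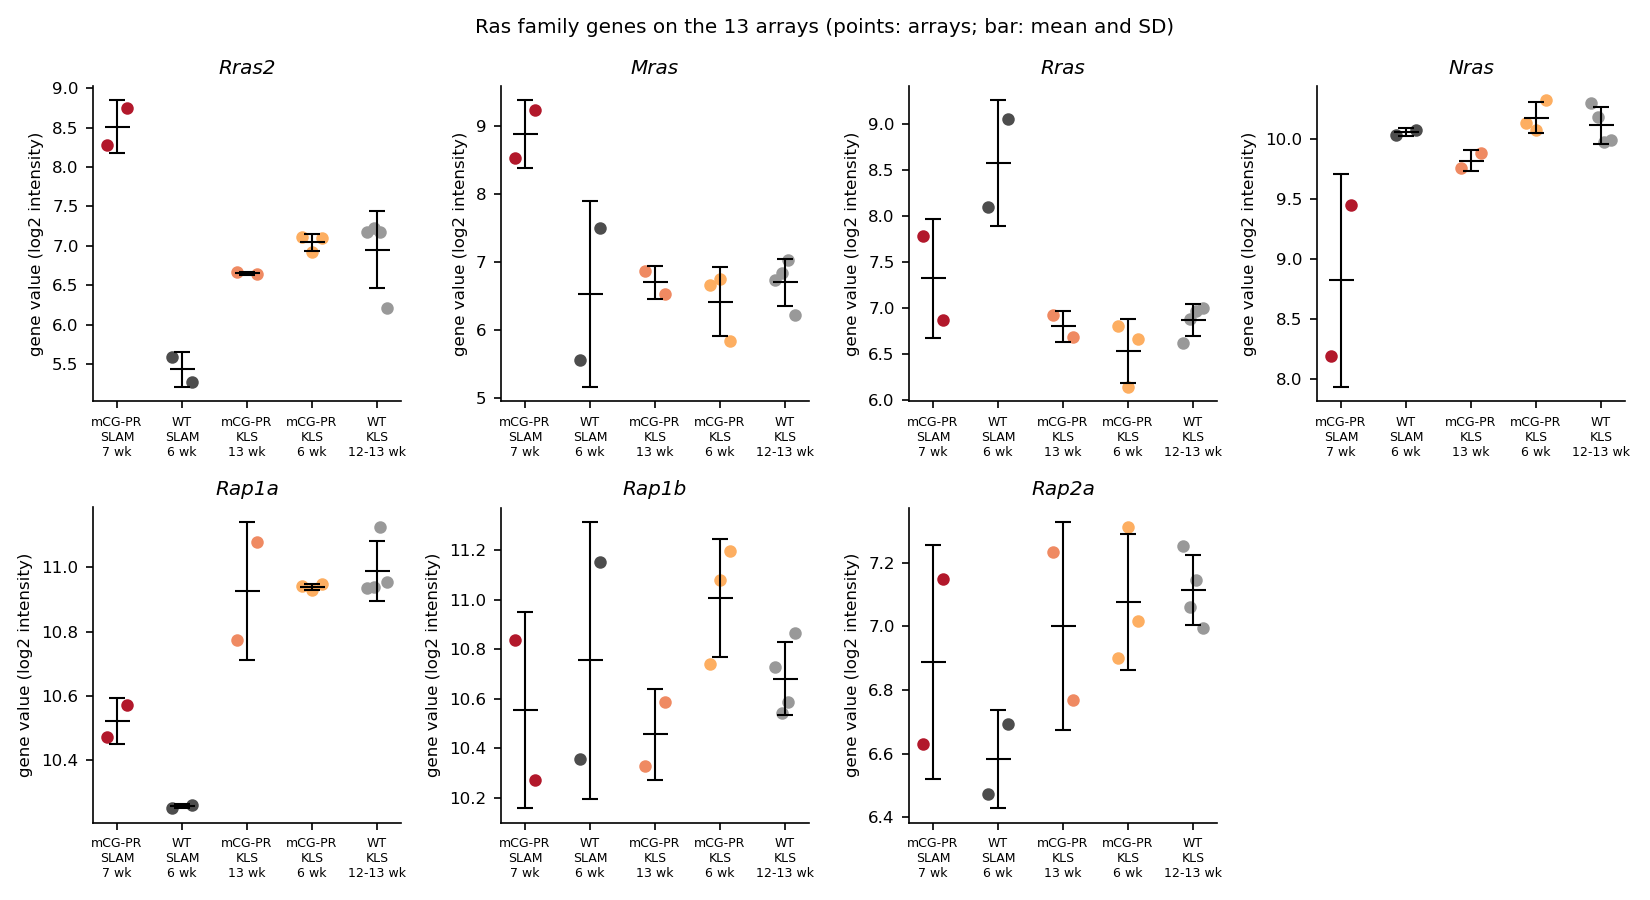
Gene values (log2 intensity, y axis) of the 7 Ras family genes in the 5 groups (x axis), each panel with its own scale. Points are arrays and bars are group means with SD; Rras2 and Mras are highest in mCG-PR SLAM, and Rras is highest in WT SLAM.

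Rras and Nras lay on the other side. Rras, the founder of the R-Ras branch and a regulator of integrin adhesion, had values of 7.78 and 6.86 in mCG-PR SLAM and 8.09 and 9.05 in WT SLAM. The difference was -1.25 on the log2 scale, or 0.419 of the WT SLAM level, and it ranged from -0.77 without WT SLAM replicate 2 to -1.74 without WT SLAM replicate 1. With the mean of probe sets the Rras difference was -0.71. Nras had values of 8.19 and 9.45 in mCG-PR SLAM and 10.04 and 10.08 in WT SLAM, a difference of -1.24 or 0.424 of the WT SLAM level. Here the spread came from the mCG-PR arrays, and the difference was -0.61 without mCG-PR SLAM replicate 1 and -1.87 without mCG-PR SLAM replicate 2. With the mean of probe sets the Nras difference was -0.91, and with the median of probe sets above the filter it was -1.32. For both genes the 2 groups did not overlap.

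The Rap genes differed less. Rap1a was 10.47 and 10.57 in mCG-PR SLAM and 10.25 and 10.26 in WT SLAM, apart by 0.27. Rap1b was 10.84 and 10.27 in mCG-PR SLAM and 10.36 and 11.15 in WT SLAM, a difference of -0.20 with overlap. Rap2a was 6.63 and 7.15 in mCG-PR SLAM and 6.47 and 6.69 in WT SLAM, a difference of 0.31 with overlap. Rap1b was 0.081 without mCG-PR SLAM replicate 2 and 0.20 without WT SLAM replicate 2, but -0.48 without mCG-PR SLAM replicate 1 and -0.59 without WT SLAM replicate 1. Rap2a was 0.57 without mCG-PR SLAM replicate 1 and 0.047 without mCG-PR SLAM replicate 2, and 0.20 without WT SLAM replicate 1. The sign for Rap1a turned to -0.05 when the mean of probe sets was taken, and that for Rap1b to 0.06 after quantile normalisation. Over the 7 members the median difference was 0.27, against -0.02 over all 10584 genes. Without overlap, 3 members (Rras2, Mras and Rap1a) were higher in mCG-PR SLAM and 2 (Rras and Nras) were lower, where 16.4% of all genes were higher and 18.8% lower without overlap. These counts follow from the contrast that chose the members, and nothing is read from them.

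Single probe sets showed how evenly each gene value was carried. All 8 Rras2 probe sets had a higher mean in mCG-PR SLAM, by 0.38 to 4.30, and 5 of them did not overlap. The largest gap was at probe set 4634338, with 8.92 and 9.32 in mCG-PR SLAM and 4.53 and 5.12 in WT SLAM. Probe set 4594232 overlapped, with 3.50 and 2.14 in mCG-PR SLAM and 2.81 and 2.08 in WT SLAM. Probe set 4828092 overlapped too, at 10.29 and 9.02 in mCG-PR SLAM and 9.67 and 8.79 in WT SLAM. It was the brightest of the 8, with a mean of 8.33 over all arrays, and its difference was only 0.43. The third with overlap was 5541957, with a difference of 1.69. Probe sets 4594232 and 5541957 lay below the filter for probe sets on low values.

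For Mras, 6 of 7 probe sets had a higher mean in mCG-PR SLAM and 5 did so without overlap. The widest gap was at 4325929, with 8.53 and 9.55 in mCG-PR SLAM and 2.62 and 6.21 in WT SLAM. One probe set, 4522828, ran the other way without overlap, at 6.48 and 6.78 in mCG-PR SLAM and 6.94 and 7.66 in WT SLAM. At 4413257 the groups lay close, with 8.72 and 9.23 in mCG-PR SLAM and 8.70 and 8.64 in WT SLAM. It was the brightest of the 7, with a mean of 8.69 over all arrays, and its difference was only 0.30. The gap thus differed widely between exon stretches.

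Of 8 Rras probe sets, 5 had a lower mean in mCG-PR SLAM, 3 of them without overlap, and 2 were higher without overlap. Among the latter was the brightest of the 8, 4316249, with a mean of 11.88 over all arrays, against 5.98 to 7.55 for the others. It read 12.08 and 12.23 in mCG-PR SLAM and 11.88 and 11.94 in WT SLAM, against the direction of the Rras gene value. The 2 mCG-PR SLAM arrays were split by a pair of probe sets. Probe set 5107303 read 9.99 in replicate 1 and 5.84 in replicate 2 of mCG-PR SLAM, against 8.25 and 9.70 in WT SLAM, and 5563893 read 10.18 and 6.82 in mCG-PR SLAM against 8.52 and 9.33 in WT SLAM. For Nras, 9 of 10 probe sets had a lower mean in mCG-PR SLAM, 6 of them without overlap, and none was higher without overlap. The widest Nras gap was at 5333528, with 7.98 and 9.82 in mCG-PR SLAM and 10.31 and 10.94 in WT SLAM, and replicate 1 of mCG-PR SLAM was the lower of the 2 arrays on 8 of the 10. For the Rap genes the probe sets were mixed, with 4 of 10 positive for Rap1a and 4 of 13 for Rap1b, while 9 of 10 were positive for Rap2a, 3 of them without overlap. Over the 145878 probe sets above the filter, 17.9% were higher and 17.2% lower in mCG-PR SLAM without overlap. The counts by gene also include probe sets below the filter, such as 4385163, which is among the 3 for Rap2a.

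**Figure D2:**
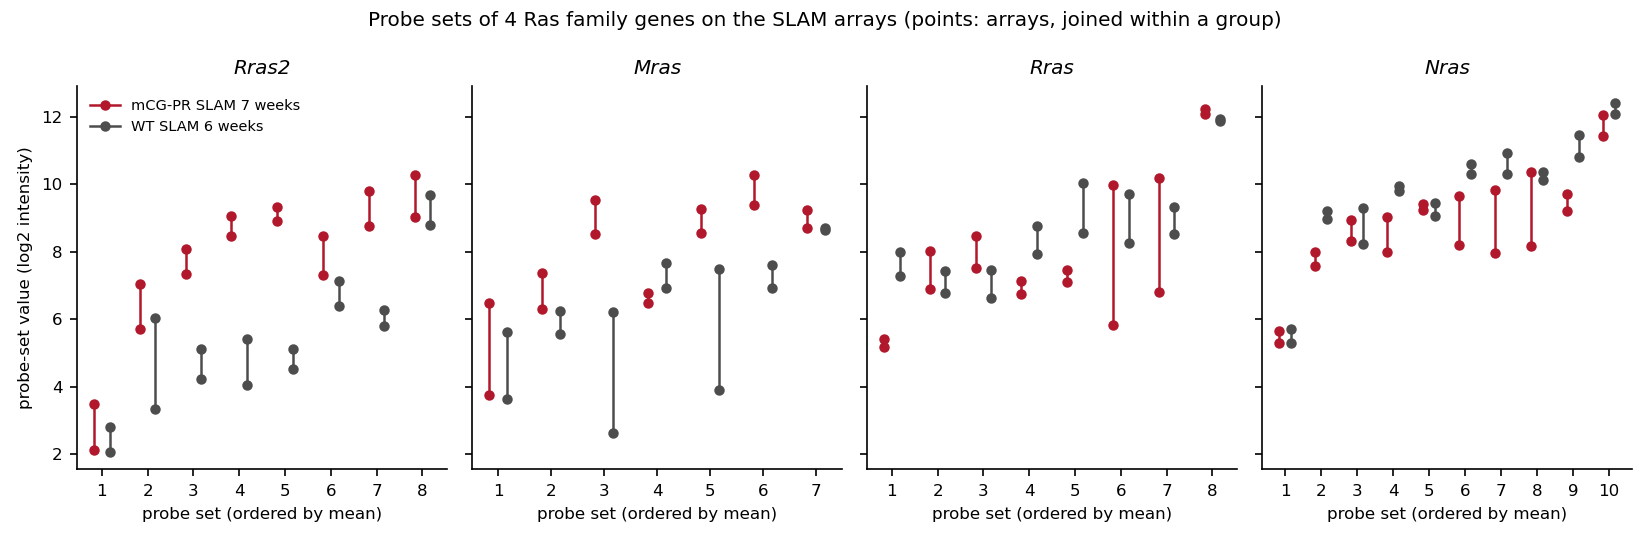
Values of single probe sets (log2 intensity, y axis) of Rras2, Mras, Rras and Nras on the 4 SLAM arrays, ordered along the x axis by their mean. Each point is an array and a line joins the 2 arrays of a group. Without overlap, 5 of 8 Rras2, 5 of 7 Mras and 2 of 8 Rras probe sets are higher in mCG-PR SLAM. Lower without overlap are 1 of 7 Mras, 3 of 8 Rras and 6 of 10 Nras probe sets. Over all probe sets above the filter, 17.9% were higher and 17.2% lower without overlap. The members were chosen from this contrast, so nothing is read from these counts.

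WT SLAM cells differed from WT KLS cells in 4 members without overlap, also given as a description, since the WT SLAM arrays took part in the choice. The WT SLAM mice were 6 weeks old and the WT KLS mice 12 to 13 weeks. Cell population and age therefore cannot be told apart in this comparison. Rras was higher, with 8.09 and 9.05 in WT SLAM against 6.62, 6.88, 6.97 and 7.00 in WT KLS, a difference of 1.71 or 3.26-fold. With the mean of probe sets the difference was 1.42. Of its 8 probe sets, 7 were higher in WT SLAM without overlap, against 11.7% of all probe sets above the filter. The brightest, 4316249, was higher by only 0.23. Rras2 was lower, at 5.59 and 5.28 in WT SLAM against 6.22 to 7.23 in WT KLS, a difference of -1.52. With the mean of probe sets the Rras2 difference was -1.03. Of its 8 probe sets, 3 were lower in WT SLAM without overlap and 1, 4828092, was higher, at 9.67 and 8.79 in WT SLAM against 7.56 to 8.05 in WT KLS. Rap1a (-0.73) and Rap2a (-0.53) were also lower in WT SLAM. Of their probe sets, 6 of 10 and 4 of 10 were lower without overlap, against 17.8% of all probe sets above the filter. Of the 4 for Rap2a, 4385163 lay below that filter. Of all genes, 12.9% were higher and 22.3% lower in WT SLAM without overlap, and the median over all genes was -0.05. Mras had a difference of -0.17 that turned to 0.80 without WT SLAM replicate 1 and was -1.14 without replicate 2. Nras (-0.06) and Rap1b (0.07) overlapped, and Rap1b was 0.47 without WT SLAM replicate 1 and -0.32 without replicate 2.

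In KLS cells, which the choice of members did not use, the question was whether the genotype or the age of the mCG-PR mice changed the Ras family. No member passed limma's test with Benjamini-Hochberg adjustment in any of 4 comparisons. Among all genes 1 passed for mCG-PR KLS of 13 weeks against WT KLS (0.00945%), 4 for 6 weeks against WT (0.0378%), 14 for both ages against WT (0.132%) and 1 for 13 against 6 weeks (0.00945%). At an unadjusted p below 0.05 there was no member in the first 3 comparisons and 1 in the last, where 13.5%, 12.6%, 13.4% and 12.1% of all genes lay below it. In simulations drawn with the spread of the KLS arrays, the same test recovered 77% of changes of 1 log2 unit and 97% of 2 log2 units at 13 weeks, and 78% and 100% at 6 weeks. Those simulations gave 178 and 185 calls, against 1 and 4 in the data, and the adjustment is stricter where fewer genes pass. The shares can therefore overstate what the test would recover among these members.

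Rras2 was 6.65 ± 0.02 in mCG-PR KLS of 13 weeks (SD, n = 2) and 6.95 ± 0.49 in WT KLS (SD, n = 4). The difference was -0.30 with a limma interval of 95% from -0.82 to 0.23 (adjusted p = 0.615). At 6 weeks it was 7.05 ± 0.11 in mCG-PR KLS (SD, n = 3), which was 0.10 above WT KLS with an interval from -0.36 to 0.56 (limma adjusted p = 0.883). The WT KLS mean includes replicate 4, at 6.22, and without it the difference at 13 weeks was -0.54 and that at 6 weeks -0.15.

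Mras was 6.70 ± 0.24 in mCG-PR KLS of 13 weeks (SD, n = 2), 6.42 ± 0.50 at 6 weeks (SD, n = 3) and 6.70 ± 0.35 in WT KLS (SD, n = 4). The differences from WT were -0.0035 with an interval from -0.57 to 0.56 at 13 weeks (limma adjusted p = 0.995) and -0.29 with an interval from -0.79 to 0.21 at 6 weeks (limma adjusted p = 0.630). Rras differed from WT KLS by -0.07 at 13 weeks (limma adjusted p = 0.902) and by -0.33 at 6 weeks, with an interval from -0.71 to 0.04 (limma adjusted p = 0.446). Nras was 9.76 and 9.89 in mCG-PR KLS of 13 weeks and 9.98 to 10.31 in WT KLS. This was the only member whose arrays did not overlap in that comparison, by -0.29 (limma adjusted p = 0.446), where 10.2% of all genes were lower without overlap. At 6 weeks Nras differed from WT KLS by 0.06.

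All 7 members had a negative difference at 13 weeks, with a median of -0.11, against 0.05 over all genes. At 6 weeks 3 were positive and 4 negative, with a median of -0.04, against 0.11 over all genes. With both ages together 6 were negative and 1, Rap1b, was positive, with a median of -0.10, against 0.08 over all genes and a smallest adjusted p of 0.599 by limma. Several of these values lie close to 0 and turned sign under other settings. The arrays of mCG-PR KLS also differed from WT KLS in markers of other cells. The log2 of the summed level of 7 of 7 monocyte and dendritic cell markers was 10.18 to 10.55 at 13 weeks and 10.40 to 11.44 at 6 weeks, against 9.41 to 9.98 in WT KLS. For 6 of 6 mast cell and basophil markers it was 9.75 to 9.83 at 13 weeks and 9.28 to 11.04 at 6 weeks, against 8.79 to 9.38 in WT KLS. For 9 of 9 neutrophil markers it was 12.38 to 12.42 at 13 weeks and 12.20 to 13.30 at 6 weeks, against 13.06 to 13.41 in WT KLS. For 10 of 10 markers of long-term stem cells it was 11.55 to 11.77 at 13 weeks and 11.79 to 12.16 at 6 weeks, against 12.09 to 12.55 in WT KLS. The mean of the 2 Y-linked genes was 7.67 to 7.78 at 13 weeks and 8.10 to 8.48 in WT KLS, while at 6 weeks it was 8.38 and 8.46 in replicates 2 and 1 and 4.53 in replicate 3. Without that array, the Mras difference from WT KLS at 6 weeks was 0.0027, in place of -0.29, and that of Rras2 was 0.07. The part of these markers in the Ras family values was not tested.

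Between the 2 ages of mCG-PR KLS mice, Rap1b showed the widest difference. Its values were 10.33 and 10.59 at 13 weeks and 10.74, 11.08 and 11.20 at 6 weeks, with no overlap. The difference was -0.55 ± 0.19 (limma SE), with an interval from -0.95 to -0.15, an unadjusted p of 0.0113 and an adjusted p of 0.308, so it did not pass the test. Of its 13 probe sets, 12 were negative and 7 had an unadjusted p below 0.05. Rras2 and Nras were also lower at 13 weeks without overlap, by -0.40 (limma adjusted p = 0.552) and -0.36 (limma adjusted p = 0.424). These 3 of 7 members stand against 20.1% of all genes that were lower without overlap. The median over the members was -0.08, close to the -0.07 over all genes.

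Of the 61 member probe sets above the filter for probe sets, none passed the adjusted test in any KLS comparison. At an unadjusted p below 0.05 there were 10 of the 61 at 13 weeks and 1 of the 61 at 6 weeks against WT. There were 2 of the 61 for both ages and 12 of the 61 between the ages, of which 7 were Rap1b probe sets. Over all probe sets the shares, in the same order, were 13.1%, 9.48%, 12.1% and 10.1%. The adjusted test passed 0%, 0%, 0.000686% and 0% of all probe sets. The smallest adjusted p for a member was 0.218, for a Rap1b probe set at 13 weeks.

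**Figure D3:**
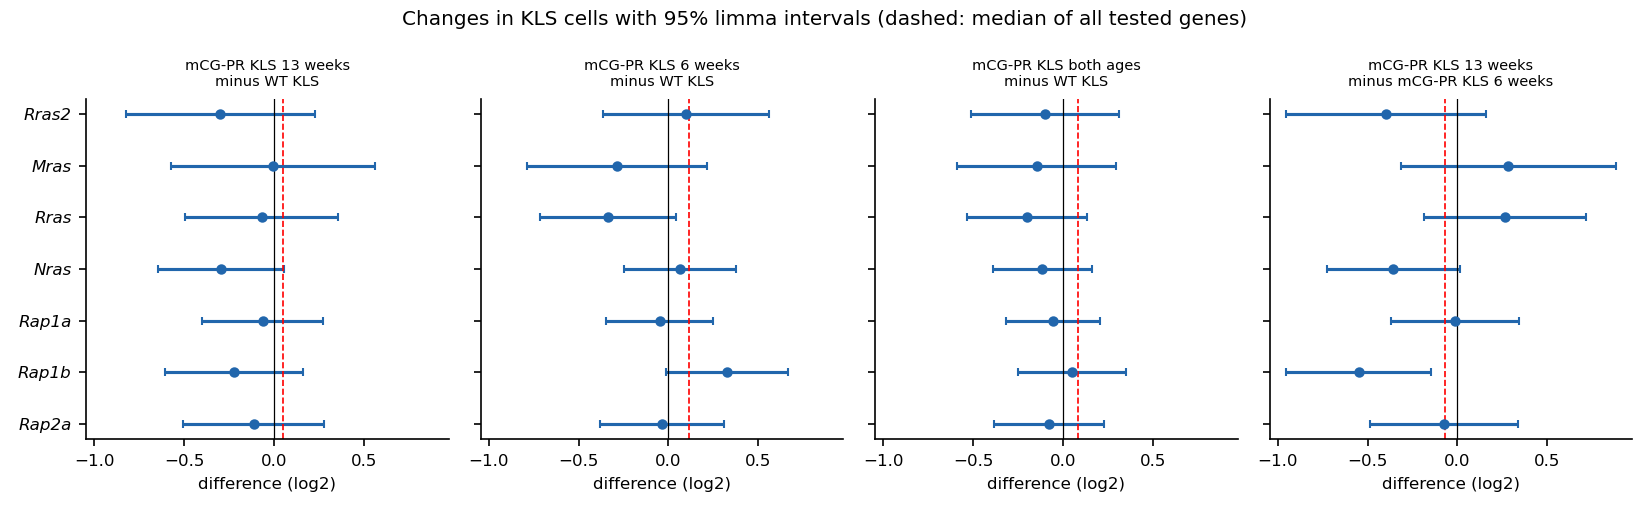
Differences (log2, x axis) of the 7 Ras family genes (y axis) in 4 comparisons of KLS cells. Points are limma estimates with intervals of 95%, and the dashed line is the median of all tested genes; only the Rap1b interval between 13 and 6 weeks does not include 0, and its adjusted p was 0.308.

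The wider pathway was described with 7 lists of genes that act with Ras and Rap proteins, of which 92 of 128 entries were tested. In mCG-PR SLAM against WT SLAM none of the 92 passed limma's adjusted test, and 0% of all genes did. At an unadjusted p below 0.05 there were 4 of 92 genes, or 4.35%, against 6.27% of all genes. In simulated data with the spread of the 4 SLAM arrays the test recovered 0% of changes of 1 or 2 log2 units, so the lack of calls is not informative. There were 47 positive and 45 negative differences, with a median of 0.02, against -0.02 over all genes.

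By role, the SLAM values with the smallest unadjusted p in each list were as follows, none of which passed the test. Among other GTPases, Nkiras1, an inhibitor of NF-kappaB signalling, differed by 1.23 (limma adjusted p = 0.752) and Rala, which acts in exocytosis, by -1.04. Among GTPase-activating proteins, Rasa1 read 7.78 and 8.04 in mCG-PR SLAM and 9.21 and 8.62 in WT SLAM, a difference of -1.0 (limma adjusted p = 0.777). It was called, with an adjusted p of 0.0278, only when all 13 arrays shared 1 limma estimate of the spread. Rasa2 differed by -0.85. Among enzymes that process the lipid anchor, Icmt, which methylates the prenylated end, differed by 0.93 and Pggt1b, a subunit of the enzyme that prenylates Rap and R-Ras proteins, by 0.80. Among adaptors, Grb2 differed by -0.99 and Crk by -1.61. Among feedback and target genes of the MAP kinase cascade, Etv5 differed by 0.93 and Ier3 by 1.46. The 2 catalytic PI3 kinase subunits Pik3cb and Pik3ca differed by -0.57 and 0.69, and the exchange factors Rapgef3 and Sos1 by -0.26 and 0.22.

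Single arrays carried much of several of these differences. Crk, an adaptor best known for its part in adhesion signalling, read 5.97 and 6.60 in mCG-PR SLAM and 6.81 and 9.0 in WT SLAM. Its difference was -0.52 without WT SLAM replicate 2, the array with markers of other cells, and -2.71 without WT SLAM replicate 1. Ier3, an early response gene, read 9.57 and 7.20 in mCG-PR SLAM and 7.07 and 6.79 in WT SLAM, and its difference was 0.27 without mCG-PR SLAM replicate 1 and 2.64 without mCG-PR SLAM replicate 2. Without mCG-PR SLAM replicate 1, Rala differed by -0.59, Etv5 by 0.45 and Rasa2 by -1.36. Without mCG-PR SLAM replicate 2, Etv5 differed by 1.41, Rasa2 by -0.34, Grb2 by -0.63 and Pik3ca by 0.37. Without WT SLAM replicate 2, Grb2 differed by -0.58, Rasa2 by -0.55, Pik3ca by 0.32 and Rapgef3 by -0.13. Without WT SLAM replicate 1, Pik3ca differed by 1.07. The direction of the 14 genes stayed as given whichever array was left out. The groups did not overlap in any of the 14, so this could not come out otherwise, and nothing is read from it.

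Between WT SLAM and WT KLS, 7 of 92 pathway genes passed limma's adjusted test, or 7.61%, beside 8.92% of all genes. At an unadjusted p below 0.05 there were 20 genes, or 21.7%, beside 26.5% of all genes. Of the 7, 6 were lower in WT SLAM and 1 was higher. Rheb, the GTPase that activates mTORC1, fell to 7.66 and 7.24 in WT SLAM, against 9.09 to 9.39 in WT KLS, a difference of -1.75 (limma adjusted p = 0.00375). It was the only one of the 7 called in all 18 settings tried. Gem (-0.95), a GTPase that restrains calcium channels, Ppp1cb (-0.78), a catalytic subunit of protein phosphatase 1, and Pik3ca (-0.92) were also lower. So were 2 genes of the MAP kinase feedback and target list, Ier3 (-1.52) and Spred2 (-1.33), an inhibitor of Ras signalling. Sipa1l3, a GTPase-activating protein of Rap, rose by 0.75 in WT SLAM. In simulated data this comparison gave 128 false calls among 273, and the WT SLAM replicate 2 array carries markers of other cells. The count was 1 with weights by sorted population and 1 without WT KLS replicate 1 or without replicate 4, 2 without WT KLS replicate 2 or replicate 3, 16 without WT SLAM replicate 1 and 8 without WT SLAM replicate 2.

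**Figure D4:**
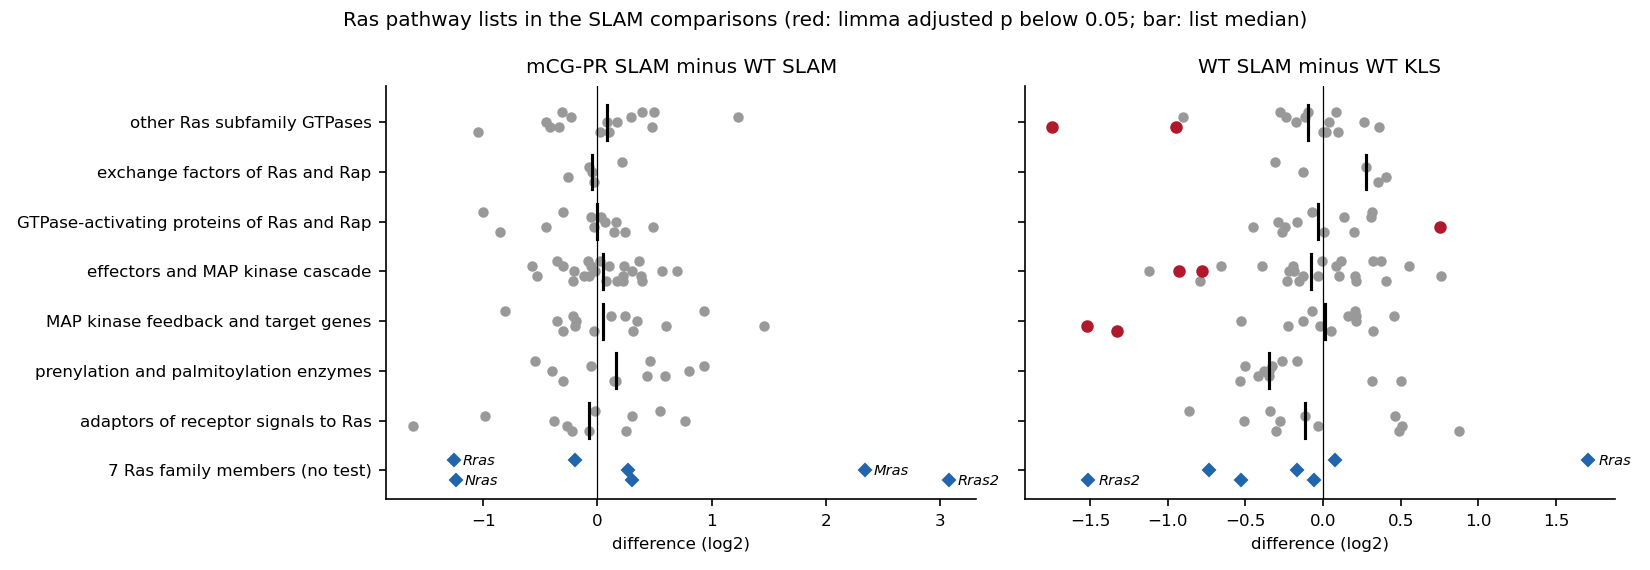
Differences (log2, x axis) of the 92 tested pathway genes by list (y axis) between mCG-PR SLAM and WT SLAM (left) and between WT SLAM and WT KLS (right). Grey and red points are genes, red where the limma adjusted p was below 0.05. Bars are list medians and blue diamonds are the 7 Ras family genes without a test. Rras2 at 3.08 and Mras at 2.34 lie outside the range of every list on the left. The members were chosen from that contrast, so nothing is read from this.

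In KLS cells none of the 92 pathway genes passed the adjusted test in any of the 4 comparisons. At an unadjusted p below 0.05 there were 10 at 13 weeks against WT, 11 at 6 weeks, 15 for both ages and 10 between the ages, which is 10.9%, 12.0%, 16.3% and 10.9% of them, beside 13.5%, 12.6%, 13.4% and 12.1% of all genes. For both ages against WT, 68 differences were positive and 24 negative, with a median of 0.11, against 0.08 over all genes. The smallest p was that of Tiam1, an exchange factor for Rac that binds active Ras, at 0.54 ± 0.13 (limma SE, adjusted p = 0.138). It was followed within the effector list by Rassf5, a partner of Rap1 in adhesion, at 0.43 (limma adjusted p = 0.175). Myc, a target of the cascade, differed by 0.47 (limma adjusted p = 0.283), and Gab1 and Grb2, adaptors, by 0.35 and 0.37. Between the ages, Pik3ca was lower at 13 weeks by -0.66 (limma adjusted p = 0.266), Rasa1 by -0.51 and Sos1 by -0.47, and Rasl10a was higher by 0.68 (limma adjusted p = 0.245). None of these passed.

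The genes most like Rras2 and Mras over the 13 arrays were found by Pearson's correlation of log2 gene values with the other 10583 genes. For Rras2 they were Arsk (r = 0.900), Aqp9 (0.896), Exosc10 (0.891), Cd274 (0.880) and Trp53bp1 (0.872). Aqp9, a water and glycerol channel, was 7.57 to 8.59 in mCG-PR SLAM and 6.47 to 6.48 in WT SLAM, with KLS arrays between 6.76 and 7.66. Cd274, an immune checkpoint ligand, was 7.88 to 7.97 in mCG-PR SLAM and 6.25 to 6.46 in WT SLAM, with KLS arrays between 6.65 and 7.43. For Mras they were Zfp526 (0.899), Tnxb (0.879), Sfxn5 (0.875), Hspg2 (0.870) and Rhpn1 (0.866). Sfxn5, a mitochondrial carrier, averaged 7.46 in mCG-PR SLAM and 6.47 in WT SLAM, with KLS group means of 6.39 to 6.52. The mCG-PR SLAM and WT SLAM means lay closer for Zfp526 (7.76 and 6.99) and Rhpn1 (6.66 and 6.30). The same held for Hspg2 (6.88 and 6.66) and Tnxb (6.37 and 6.17). Tnxb and Rhpn1 lay close to the filter level of 6.00 in WT SLAM, so a high correlation here can rest on small differences. These correlations are a description over 13 arrays in 5 groups, all of which include the 4 SLAM arrays that chose Rras2 and Mras.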

How the data were processed

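Gene expression was measured on 13 Affymetrix Mouse Exon 1.0 ST arrays, 1 mouse each. Per the submitters' processing notes, the authors made the deposited intensity values with RMA on the mm9 build; the sources used here give neither its version nor its settings. RMA removes background and equalises the arrays, which can shrink real differences in overall RNA. The deposited intensities were linear, from 2.34 to 21748, with array medians of 98.6 to 115.3, and log2 was taken without further scaling. The table's 229581 probe sets comprised 208397 annotated to a single gene, which were used, 3965 to several genes and 17219 to no gene. Gene values were medians of log2 over at least 3 probe sets, and 1913 symbols were updated through a synonym. The tests took genes with a mean log2 above 6.00 and probe sets above 5.81, the 30th percentiles. The number of arrays limits the precision.

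Tests used limma 3.58.1 in R 4.3.3, two-sided, with Benjamini-Hochberg adjustment over all features tested and a threshold of 0.05. KLS contrasts were fitted in the 9 KLS arrays and mCG-PR SLAM against WT SLAM in the 4 SLAM arrays. They were kept apart because the median SD within groups was larger in SLAM (0.325) than in KLS (0.217). The fit of WT SLAM against WT KLS in the 6 WT arrays pooled both populations in a shared estimate of the spread. The limma tests of gene values were run on simulated data for each comparison. The tests of probe sets and the other steps were not. In KLS, false calls were 4 of 178 at 13 weeks, 7 of 185 at 6 weeks, 10 of 203 for both ages and 8 of 180 between ages. They were 128 of 273 for WT SLAM against WT KLS. Between the SLAM groups there were 0 calls of any kind. Replicate numbers did not pair the samples: deviations of arrays with the same number correlated at -0.04 to 0.08 in KLS and at -0.03 in SLAM.

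The members, gene lists and tests were chosen with earlier results of these data known. Pathway genes were named where they passed the test (at most 4 for each list and direction), otherwise up to 2 for each list with the smallest p as values. The 5 genes most like Rras2 and Mras were named without predicted genes. Alternatives were 2 filters, 2 summaries of probe sets, 2 normalisations, 2 fits of all 13 arrays, array weights, the replicate block, a trended and robust prior, WT KLS mice of 1 age, and leaving out each array. Promoter sequences are from RefSeq (GRCm38.p6), which held 6 of the 7 members; Rap1a is named only. Markers and Y-linked genes were summed or averaged per array.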

Additional observations from a re-analysis of the deposited data

Results flagged for a closer look

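Among the 7 genes in the 4 WT KLS arrays, the only group large enough for a test of single arrays, 2 values stood far from the rest. Rras2 was 6.2172 in WT KLS replicate 4, below the next array at 7.18, and Rap1a was 11.1272 in WT KLS replicate 3, above the next at 10.95. Chance flags about 1 in 20 such groups. Without replicate 4 the Rras2 difference of mCG-PR KLS of 13 weeks from WT KLS was -0.54, and that of 6 weeks was -0.15. Neither passed limma's adjusted test, and the cause of either reading was not tested.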

How the results depend on the processing

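No member passed limma's adjusted test in KLS under any setting: of 602 changes recomputed, 557 kept their direction, 45 turned sign without passing, and the lowest adjusted p was 0.136. The cause was not tested. Among them Mras, at -0.29 at 6 weeks and 0.28 between the ages, turned to 0.0027 and -0.0063 without mCG-PR KLS replicate 3 of 6 weeks. The same held for the member probe sets, with 0 called for both ages under every setting run.
With the mean of probe sets, the difference from WT KLS was 0.086 for Rras at 13 weeks, and at 6 weeks it was -0.066 for Rras2, -0.042 for Nras, 0.013 for Rap1a and 0.031 for Rap2a; over both ages it was -0.045 for Rap1b. With the median of probe sets above the 30th percentile, Rras2 at 6 weeks was -0.10. Quantile normalisation gave -0.10 for Nras at 6 weeks and 0.16 for Rap1a between the ages. Subtracting array medians gave -0.028 for Rras2 and -0.063 for Nras at 6 weeks, -0.031 for Rap1b over both ages, and 0.076 for Rap1a and 0.013 for Rap2a between the ages. Array weights gave 0.027 for Mras at 13 weeks. The replicate block gave 0.043 for Rras at 13 weeks, -0.15 for Rras2 at 6 weeks and 0.021 for Rap1a between the ages. With only WT KLS mice of 13 weeks, Rras was 0.047 at 13 weeks, and at 6 weeks Rras2 was -0.15, Nras -0.065 and Rap1a 0.0022. With only those of 12 weeks, Mras was 0.079 at 13 weeks, Rap2a 0.0060 at 6 weeks, and over both ages Rras2 was 0.15 and Nras 0.014.
Leaving out each array in turn gave ranges that cross 0. At 13 weeks they were -0.17 to 0.16 for Mras, -0.19 to 0.050 for Rras, -0.22 to 0.090 for Rap1a and -0.34 to 0.12 for Rap2a. At 6 weeks they were -0.15 to 0.19 for Rras2, -0.45 to 0.0027 for Mras, -0.0092 to 0.13 for Nras and -0.16 to 0.051 for Rap2a. Over both ages they were -0.13 to 0.020 for Rap1a, -0.014 to 0.12 for Rap1b and -0.19 to 0.041 for Rap2a. Between the ages they were -0.0063 to 0.45 for Mras, -0.17 to 0.14 for Rap1a and -0.31 to 0.16 for Rap2a.
Pathway calls between WT SLAM and WT KLS (7) became 4 with no filter, 13 with the mean of probe sets, 1 with weights by sorted population, 1 with array weights, 2 with the replicate block and 1 to 16 when single arrays were left out. For mCG-PR SLAM against WT SLAM, 1 gene (Rasa1) was called when all 13 arrays shared 1 spread. Over all genes, limma's calls ranged over the settings from 0 to 22 at 13 weeks, 0 to 43 at 6 weeks, 0 to 49 for both ages, 0 to 17 between the ages, 0 to 275 between the SLAM groups and 97 to 1982 between WT SLAM and WT KLS, beside 1, 4, 14, 1, 0 and 944 as reported. The block changed no call among the members or between the SLAM groups.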
